A study of Mus musculus with 24 samples.

Results

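The small RNA of extracellular vesicles (EVs) released by BV2 cells after lipopolysaccharide (LPS) was compared with that of EVs from untreated BV2 cells. BV2 is an immortalised mouse microglial line, and LPS is a bacterial cell wall component that is sensed by Toll-like receptor 4. The comparison uses 6 of the 24 libraries of the study, 3 from control EVs and 3 from EVs of cells given LPS at 100 ng/mL for 72 h, and every precursor of the deposited table. The table lists 1187 microRNA precursors, of which 555 had at least 1 count in these 6 libraries and 71 had enough counts to be tested. The other EV libraries came from cells given interleukin-10 (IL-10) or transforming growth factor beta (TGF-β) at 50 ng/mL for 72 h, 3 libraries each. The remaining 12 libraries came from the cells themselves, 3 each from untreated cells and from cells given LPS, IL-10 or TGF-β at the same doses for 72 h. All EV libraries started from 20 µL of EVs, were eluted in 20 µL and were amplified with 18 PCR cycles. The cell libraries were eluted in 40 µL and amplified with 18 PCR cycles. Nothing in the labels says that the 3 libraries of each group are separate cultures. The p-values therefore cover the spread among the sampled libraries only, and that spread may be technical. Libraries are numbered as in the columns of the deposited table, which name the group but not the individual sample.

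EVs are membrane-bound particles that cells shed or release from endosomes, and they carry proteins and short RNAs that recipient cells can take up. A microRNA is cut from a hairpin precursor and, once loaded into an Argonaute protein, represses messenger RNAs that pair with its seed, the bases near its 5′ end. In microglia and macrophages, Toll-like receptor 4 signals through NF-kB, which induces miR-155, miR-146a and other microRNAs that tune the inflammatory response. Small RNA libraries from EVs also hold fragments of ribosomal RNA, transfer RNA, small nucleolar RNA (snoRNA) and messenger RNA, and some annotated precursors have the sequence of such fragments.

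Of the 1187 precursors 1030 had a mature sequence in the RefSeq table (GRCm38.p6), as had 65 of the 71 tested and 10 of the 13 called different. The sequences below are those the comparison turned on, written 5′ to 3′ with the seed (bases 2 to 8) in capitals. The first pair belongs to precursors that rose after LPS, and miR-6236 and miR-6240 belong to the most abundant precursor of the EVs and one of the called lower ones.
miR-2137: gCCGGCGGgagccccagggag
miR-5126: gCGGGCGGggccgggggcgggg
miR-6236: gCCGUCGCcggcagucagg
miR-6240: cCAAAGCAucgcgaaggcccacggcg
The following are further precursors that fell.
miR-5108: gUAGAGCAcuggaugguuu
miR-6345: uAGCACUGcucagggugaacu
miR-5100: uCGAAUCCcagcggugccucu
miR-1896: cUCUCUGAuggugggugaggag
miR-203-3p: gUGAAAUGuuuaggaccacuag
miR-3544-3p: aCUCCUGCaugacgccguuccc
The let-7 members and the miR-146 pair are shown because each set shares 1 seed, and miR-664 and miR-6238 because they took large shares of the LPS EVs.
let-7a-5p: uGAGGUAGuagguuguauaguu
let-7c-5p: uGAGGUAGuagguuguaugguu
let-7f-5p: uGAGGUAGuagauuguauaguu
miR-146a-5p: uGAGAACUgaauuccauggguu
miR-146b-5p: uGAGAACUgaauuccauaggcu
miR-664-3p: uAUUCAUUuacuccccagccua
miR-6238: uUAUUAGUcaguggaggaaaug

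No 2 of the 10 called precursors with a sequence shared a seed. The miR-5126 sequence consists of G and C alone (100% GC) and miR-2137 is 85.7% GC, against a median of 47.7% over the 65 tested precursors with a sequence. The 8 called lower precursors with a sequence had a median of 53.0% GC, the mean of both arms being used where both were listed. In the GENCODE M21 annotation of GRCm38, mir-2137 lies in an intron of Zfp185 and mir-5126 lies antisense to an exon of Dner, which encodes a Notch ligand of neurons. Among the called lower precursors, mir-6345 lies in an intron of Ppp1r7, mir-5100 in an intron of Mief2, mir-3960 in an exon of Cdk9 and mir-5108 antisense to an intron of H2afy2.

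Total counts were 15869, 16027 and 18047 in the control EV libraries and 23943, 28727 and 25867 in the LPS EV libraries, against 185400 to 409969 in the cell libraries. The LPS EV libraries were deeper than all 3 control libraries, from equal input volumes. Where a precursor was at 0, its share could still be up to 0.0166% to 0.0189% of a control library and 0.0104% to 0.0125% of an LPS library (a floor of 3 counts). Intervals and floors cover counting error only, because PCR duplicates cannot be told from separate molecules here. Total counts do not measure input RNA, so vesicle number and RNA per vesicle cannot be read from these libraries or told apart. The cause of the greater depth of the LPS EV libraries was not tested. The table does not separate the 2 arms of a precursor, and numbered copies with the same mature sequence may share reads. Of the myeloid markers, mir-142a had 10, 6 and 20 counts in the control EVs and 47, 30 and 76 in the LPS EVs. Its shares overlapped between the groups, and its log2 change of 0.46 ± 0.64 SE was not called (edgeR adjusted p = 0.653). mir-342 went the other way, with 11 summed counts in the control and 3 in the LPS EVs, and mir-155 had 0 and 3. The remaining markers, mir-223 and mir-511, were at 0 in all 12 EV libraries. The limits on both were 0.00601% of the control and 0.00382% of the LPS EV counts, and in control cells their shares were 0.0270% and 0.00819%. Both of these control cell shares lay above the EV limits. In LPS cells the shares were 0.0129% and 0.00176%, the latter below the limit in the LPS EVs.

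The LPS EV libraries held 9531 more counts than the control EV libraries in the mean, and 7292 of these lay outside the 2 dominant precursors. mir-6236 and mir-6240, which stand on a hand-compiled list of non-canonical precursors, together had 13015, 13611 and 14545 counts in the control EVs and 16689, 17086 and 14114 in the LPS EVs. These ranges overlapped, and the means of 13724 ± 771 and 15963 ± 1614 (SD, n = 3 each) differed 1.16-fold (exact permutation p = 0.2, two-sided). All other precursors together had 2854, 2416 and 3502 counts in the control EVs and 7254, 11641 and 11753 in the LPS EVs. Here every LPS library was above every control library, with means of 2924 ± 546 and 10216 ± 2566 and a ratio of 3.49. The exact permutation p was 0.1, the smallest that 3 against 3 libraries can give. As a share of all counts, the dominant pair went from 82.5 ± 2.21% in the control EVs to 61.2 ± 7.72% in the LPS EVs (69.7%, 59.5% and 54.6% in the 3 libraries), with no overlap and again an exact permutation p of 0.1.

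**Figure D1:**
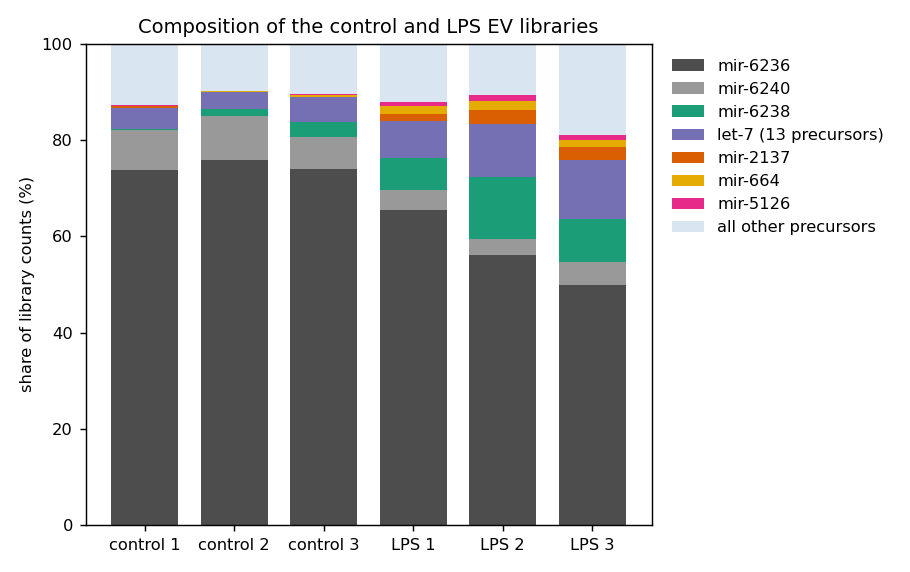
Share of library counts (%, y axis) taken by 6 precursors, by the 13 let-7 precursors together and by all others, in each of the 3 control and 3 LPS EV libraries (x axis, 1 bar a library). The dark mir-6236 segment is shortest in the LPS libraries, at 65.5%, 56.2% and 49.9%, and mir-6238, let-7, mir-2137, mir-664 and mir-5126 are wider there.

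Within the part of the library outside the dominant pair, the let-7 share overlapped between the groups. The 13 let-7 precursors, whose mature forms restrain growth and differentiation programmes in many cell types, took 24.8%, 23.3% and 26.2% of those counts in the control EVs and 25.2%, 27.6% and 27.1% in the LPS EVs. The means of 24.8 ± 1.43% and 26.7 ± 1.25% differed by 1.87 percentage points (exact permutation p = 0.2). let-7a-1 had 156, 109 and 185 counts in the control EVs and 401, 737 and 664 in the LPS EVs, a log2 change of 0.29 ± 0.26 SE on the TMM scale (edgeR adjusted p = 0.526). TMM is a scaling that takes the bulk of precursors as unchanged, so raw counts that grew like those of the other precursors came out near 0. Of 10 let-7 precursors tested none was called in either direction, against 18.3% of all 71 tested, and their median log2 change was 0.20, against 0.02 for all 71 tested. With mir-6236 and mir-6240 removed let-7f-2 was called higher (log2 0.93, edgeR adjusted p = 0.0457), against a log2 change of 0.51 with them. let-7g, with 14, 17 and 29 counts in the control and 9, 23 and 36 in the LPS EVs, stood at -1.59 ± 0.73 SE and was not called (edgeR adjusted p = 0.196). Copies such as let-7a-1 and let-7a-2 gave nearly the same counts and are not independent.

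The number of precursors seen depended on depth. Thinned to 2416 counts outside the dominant pair, the control EV libraries held 92.3, 80.0 and 67.5 precursors with at least 5 counts (the expected number over all draws), and the LPS EV libraries 60.1, 47.1 and 61.2. All 3 LPS libraries were below all 3 control libraries, with means of 79.9 ± 12.4 and 56.2 ± 7.82 (exact permutation p = 0.1). Without thinning the order was the opposite, with 40.7 more precursors in the LPS EVs (exact permutation p = 0.1).

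Across the tested precursors, 3 rose and 10 fell in the LPS EVs, 13 of 71 (18.3%; 4.23% higher and 14.1% lower) by edgeR's quasi-likelihood test at a Benjamini-Hochberg adjusted p under 0.05, and 18 had an unadjusted p under 0.05. The 3 that rose were mir-2137, mir-320 and mir-5126. Those that fell were mir-5108, mir-1a-1, mir-6240, mir-6345, mir-5099, mir-3960, mir-3544, mir-5100, mir-1896 and mir-203. In all 13 the normalised CPM, which are CPM computed with the TMM factors, did not overlap between the groups. Such separation was seen in 14 of the 71 upward (19.7%) and 18 downward (25.4%). The count rested on single libraries: 1 precursor was called without control library 1, 2 without control library 2, 1 without LPS library 2 and 2 without LPS library 3, against 11 without control library 3 and 10 without LPS library 1. It also rested on the scaling. Library totals in place of TMM factors moved the median log2 change of the tested precursors from 0.02 to 1.10 and left 3 higher and 1 lower. With mir-6236 and mir-6240 removed the median was 0.31, with 5 higher and 6 lower.

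**Figure D2:**
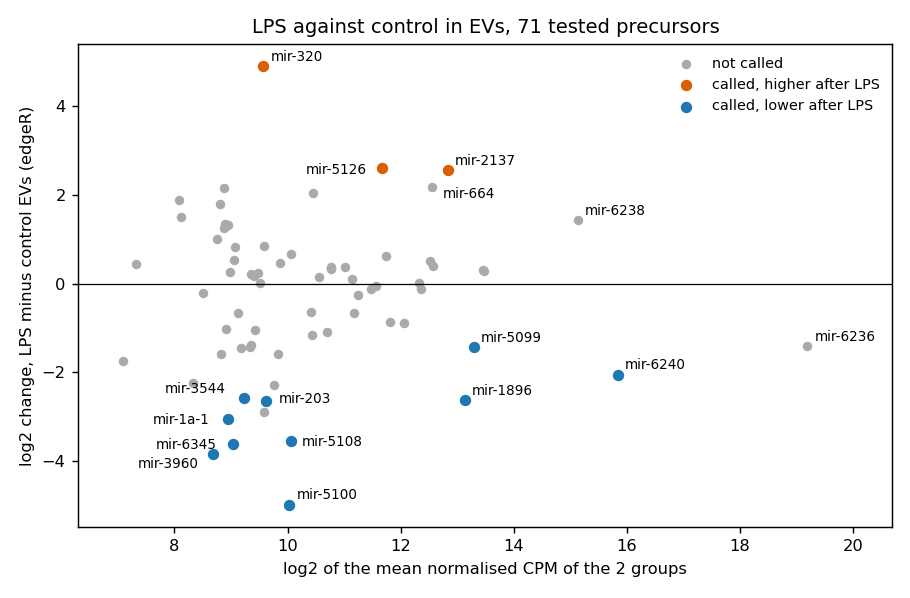
Log2 change in the LPS against the control EVs (edgeR estimate, y axis) against the log2 of the mean normalised CPM of both groups (x axis), 1 point for each of the 71 tested precursors. The 3 orange points above 0 are the precursors called higher, the 10 blue points those called lower, and mir-6236, farthest right at a log2 change of -1.41, was not called.

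mir-2137 gave the steadiest difference. It had 49, 19 and 25 counts in the control EVs and 348, 783 and 704 in the LPS EVs. The lowest LPS library exceeded the highest control library, and the share of counts went from 0.189 ± 0.104% to 2.30 ± 0.733% (SD, n = 3 each). The log2 change was 2.56 ± 0.43 SE, a 5.89-fold rise on the TMM scale (edgeR adjusted p = 0.00386). It was called under all 15 alternative analyses, with log2 changes of 2.26 to 3.61 and adjusted p-values of 1.18e-06 to 0.0489. The cytokine EVs had 21, 14 and 9 counts after IL-10 and 22, 11 and 14 after TGF-β, within or below the control range.

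mir-5126 followed the same pattern at a lower level. Its counts were 20, 9 and 11 in the control EVs and 179, 353 and 277 in the LPS EVs, with no overlap, and its share went from 0.0811 ± 0.0390% to 1.02 ± 0.245%. The log2 change was 2.61 ± 0.80 SE (edgeR adjusted p = 0.0386). The call held under all 9 alternatives that kept every control and LPS library, but ended when any 1 of the 6 libraries was left out (edgeR adjusted p = 0.0713 to 0.154, log2 2.31 to 3.01). After IL-10 its counts were 15, 0 and 4, and after TGF-β 1, 6 and 15.

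mir-320, whose hairpin is made without the nuclear enzyme Drosha and which is often reported in EVs, was almost absent from the control EVs. Its counts there were 0, 0 and 2, and in the LPS EVs 32, 97 and 94, so that the groups lay far apart. Over summed counts its share was 70.9 times that of the controls, with an exact 95% counting interval of 19.4 to 589 that leaves out the spread between libraries. The fitted log2 change of 4.91 ± 1.07 SE (edgeR adjusted p = 0.0103) depends on the handling of zeros. The call ended without control library 1 (adjusted p = 0.0612), control library 2 (0.0586), LPS library 2 (0.0811) or LPS library 3 (0.0864). Without control library 3, which held both control counts, the fitted value was 8.04 (edgeR adjusted p = 0.0189). After IL-10 there were 2, 2 and 1 counts and after TGF-β 2, 1 and 0. In cells mir-320 had 73, 75 and 71 counts in the controls and 234, 311 and 328 after LPS, a log2 change of 2.90 ± 0.35 SE. The difference between its change in EVs and in cells, 2.53 ± 1.06 SE on the log2 scale, was not called (edgeR adjusted p = 0.117).

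**Figure D3:**
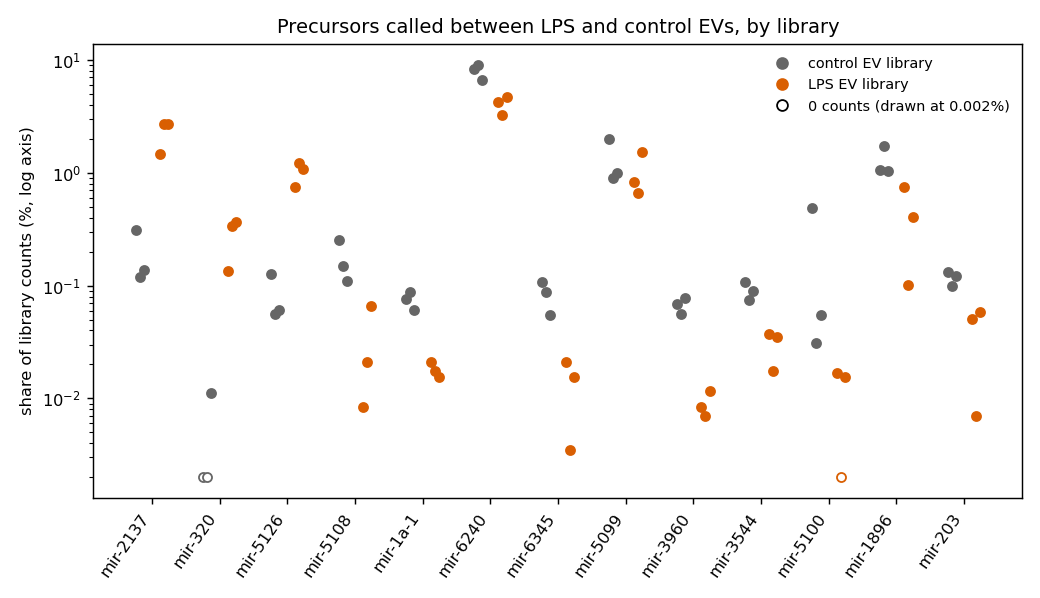
Share of library counts (%, log y axis) of the 13 called precursors (x axis) in each control EV library (grey) and LPS EV library (orange), with open circles for libraries at 0 counts. The orange points of mir-2137, mir-320 and mir-5126 lie above all grey ones, and for 9 of the 10 lower precursors they lie below, mir-5099 being the one whose shares overlap.

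Among the precursors that fell, mir-6240 was the most abundant, with 1315, 1455 and 1201 counts in the control EVs and 1016, 936 and 1205 in the LPS EVs. Its counts overlapped narrowly, while its share of the deeper LPS libraries was 4.05 ± 0.719% against 8.01 ± 1.24%, without overlap. The log2 change was -2.05 ± 0.48 SE (edgeR adjusted p = 0.0125), and it was the only one of the 10 still called with library totals (log2 -0.97, adjusted p = 0.0473). mir-6236 had 11700, 12156 and 13344 counts in the control EVs and 15673, 16150 and 12909 in the LPS EVs. Its log2 change of -1.41 ± 0.49 SE missed the threshold (edgeR adjusted p = 0.0710). In DESeq2's Wald test the adjusted p of mir-6236 was 0.0122, and in the fit of the 6 libraries alone it was 0.00674. The number of mir-6236 counts per mir-6240 count was 9.45 ± 1.46 in the control and 14.5 ± 3.38 in the LPS EVs, with overlapping libraries (exact permutation p = 0.2).

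mir-5108 had 40, 24 and 20 counts in the control EVs and 2, 6 and 17 in the LPS EVs, a log2 change of -3.54 ± 0.73 SE (edgeR adjusted p = 0.0103). mir-6345 had 17, 14 and 10 against 5, 1 and 4 counts (log2 -3.61 ± 0.85 SE, edgeR adjusted p = 0.0125). For both, the counts themselves were lower in every LPS library although those libraries were deeper. The same held for mir-3960 (11, 9 and 14 against 2, 2 and 3 counts), mir-3544 (17, 12 and 16 against 9, 5 and 9), mir-1a-1 (12, 14 and 11 against 5, 5 and 4) and mir-203 (21, 16 and 22 against 12, 2 and 15). Their log2 changes were -3.83, -2.58, -3.05 and -2.65. mir-1a-1 is a precursor of the muscle microRNA miR-1, and mir-203 of a microRNA of keratinising epithelium.

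mir-5100 had 77, 5 and 10 counts in the control EVs and 4, 0 and 4 in the LPS EVs, so control library 1 held most of them. Without control library 1 its log2 change went from -4.99 to -2.95 (edgeR adjusted p = 0.198). mir-1896 had 168, 278 and 188 against 180, 29 and 104 counts, which overlap, and a log2 change of -2.63, or -3.80 without LPS library 1 (edgeR adjusted p = 0.0167). mir-5099 had 314, 144 and 181 against 199, 189 and 391 counts, and its shares overlapped at 1.29 ± 0.596% and 1.00 ± 0.451%. The log2 change of mir-5099 was -1.43 ± 0.38 SE on the TMM scale (edgeR adjusted p = 0.0210) and -0.36 with library totals (adjusted p = 0.626).

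The calls among the 10 lower precursors depended on 4 libraries. Without control library 1 none was called (edgeR adjusted p = 0.0576 to 0.198), nor without LPS library 2 (0.0741 to 0.193). Without control library 2 (0.0505 to 0.135) and without LPS library 3 (0.0864 to 0.133) only mir-5108 was. Leaving out control library 3 ended the calls of mir-3960 (0.0548) and mir-203 (0.0911), and leaving out LPS library 1 those of mir-5099 (0.0508), mir-3960 and mir-203 (0.0681 each). All 10 kept a negative log2 change under every alternative that could be fitted to them.

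**Figure D4:**
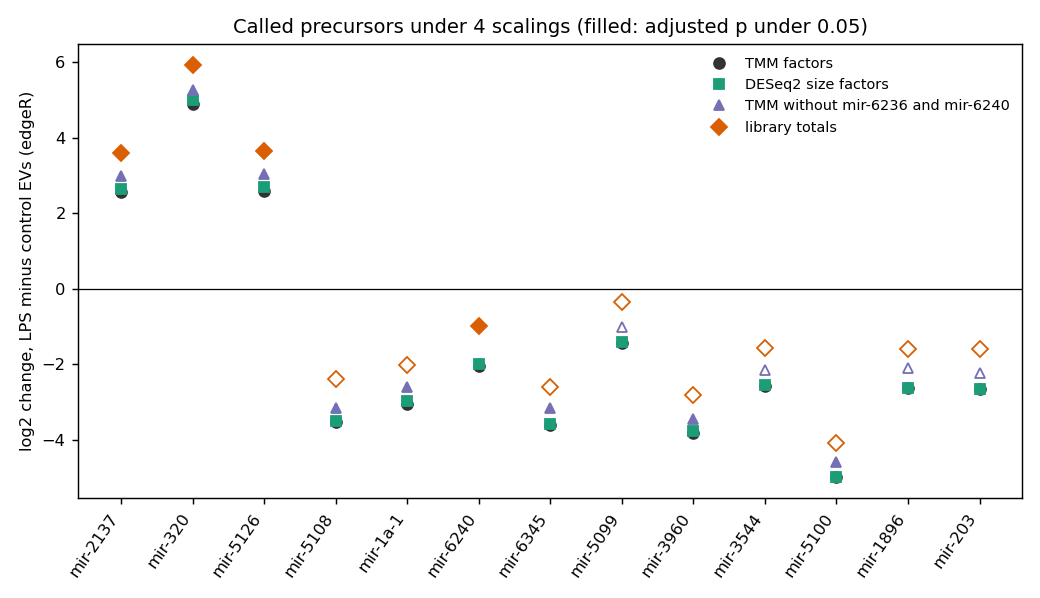
Log2 change in the LPS against the control EVs (edgeR estimate, y axis) of the 13 called precursors (x axis) under 4 scalings, with filled symbols where the adjusted p was under 0.05. Library totals (diamonds) lie above the TMM values (circles) throughout, and there only mir-2137, mir-320, mir-5126 and mir-6240 are filled.

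Most of the called lower precursors were nearly absent from the cells. mir-6345 and mir-3544 had 0 counts in all 6 control and LPS cell libraries, and mir-5108, mir-1a-1, mir-3960, mir-203 and mir-1896 had 2, 3, 4, 4 and 4 counts over the 6. This was noticed after the values were seen, and the set was then widened to every precursor with under 5 counts in those cell libraries. Of 10 such precursors tested in the EVs, 7 were called lower and all 10 had a log2 change below 0 (median -2.77), with TMM factors and with library totals. Of the other 61 tested, 3 were called lower and 3 higher, and 24 had a log2 change below 0 (median 0.25). A precursor could enter the test through the control or cytokine EVs alone, so these counts are a description. Without that filter, the 792 precursors of the table with under 5 counts in the cells had 595, 545 and 510 counts together in the control EVs and 331, 149 and 317 in the LPS EVs. Their share was thus 3.75%, 3.40% and 2.83% against 1.38%, 0.519% and 1.23%, without overlap. Over the 3 libraries of a group they had 1345 counts after IL-10 and 1717 after TGF-β. These sums include the 10 tested precursors, so they are not separate from the calls above. mir-1896 alone held 168, 278 and 188 of the control and 180, 29 and 104 of the LPS EV counts. The sum without the 10 was not taken.

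Lists of markers of other cell types were set beside these values. The 2 tested members of the muscle, liver and epithelium list, mir-1a-1 and mir-203, are both among the 10 that fell, against 14.1% of all 71 tested. A count of 2 carries no result about the list. Of the list's 117 control EV counts mir-1a-1 and mir-203 held 37 and 59, and 11 of its 21 members in the table were at 0 in all 6 libraries. Its summed share was 0.194% to 0.290% of the control and 0.0453% to 0.0851% of the LPS EV counts. For the 16 neuron and astrocyte precursors, none of them tested and 3 at 0, the summed share was 0.0811% to 0.693% of the control and 0.00387% to 0.0313% of the LPS EVs. The control mean was 0.297 ± 0.344% (SD, n = 3), and most of it came from a single control library. mir-124-1 had 12, 0 and 6 against 0, 2 and 0 counts. For red cell, platelet and endothelial precursors the share was 0% to 0.127% against 0.00348% to 0.0271%, which overlap, with mir-451a at 1 count in the 6 libraries. The part of these sources in the called differences was not tested.

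The non-canonical list was compiled by hand from precursors held to be made of, or to overlap, ribosomal, transfer, small nucleolar or other structural RNA. The annotation gave protein-coding genes as the hosts or antisense partners of mir-2137, mir-5126, mir-5100 and mir-3960, and the origin of their reads was not tested. Of its 12 tested members 2 were higher (mir-2137 and mir-5126; 4.23% of all 71 tested were higher) and 4 lower (mir-6240, mir-5099, mir-5100 and mir-3960; 14.1% of all were lower). Their median log2 change was -1.28 against 0.02 for all tested. Counts this small describe the list only. The list as a whole took 85.2 ± 2.08% of the control and 67.9 ± 6.50% of the LPS EV counts.

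A second group, which shares mir-664, mir-1839, mir-5121, mir-3068 and mir-1291 with the non-canonical list, was taken from the GENCODE annotation after the values were seen. Hairpins of 14 precursors overlap a snoRNA or a small Cajal body RNA (scaRNA), nuclear guides of RNA modification, on the same strand. Together they had 567 counts in the control and 3235 in the LPS EVs, and their share of the library was 0.805% to 1.41% in the control and 3.52% to 5.21% in the LPS EVs. mir-664 alone held 102 and 1373 of these counts. All precursors outside mir-6236 and mir-6240 together rose 3.49-fold in counts. Of the 12 tested in this group none was called, against 18.3% of all 71, and 8 had a log2 change above 0, with a median of 0.44 against 0.02 for all tested. mir-664, which lies within Snora36b in an intron of Rab3gap2, had 10, 16 and 76 counts in the control and 398, 590 and 385 in the LPS EVs. The groups of mir-664 were far apart, with a log2 change of 2.17 ± 0.82 SE that missed the threshold (edgeR adjusted p = 0.0953). With DESeq2's Wald test its adjusted p was 0.0391, and with mir-6236 and mir-6240 removed 0.0453. Without control library 3, which held 76 of its control counts, mir-664 was called higher (log2 3.18, edgeR adjusted p = 0.0331). mir-1843b, within Scarna3a in an intron of Cop1, had 17, 3 and 4 against 63, 68 and 203 counts (log2 2.04 ± 0.98 SE, edgeR adjusted p = 0.206). mir-3535, within a snoRNA of the nucleolin gene Ncl, had 43, 36 and 36 against 126, 161 and 326 counts (log2 0.63, adjusted p = 0.485).

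mir-6238 was the second most abundant precursor of the LPS EVs. It had 46, 242 and 582 counts in the control EVs and 1592, 3676 and 2317 in the LPS EVs, and its share went from 1.67 ± 1.47% to 9.47 ± 3.10%. The groups did not overlap, but the control libraries differed widely among themselves, and the log2 change of 1.44 ± 0.83 SE was not called (edgeR adjusted p = 0.283). Without the filter on low counts it was (log2 1.84, edgeR adjusted p = 0.0300). The mature sequence of the 3 mir-692 copies also occurs in transcripts of Ftl1, the ferritin light chain gene, and that of mir-682 in transcripts of the ribosomal protein gene Rpl37a. mir-692-3 had 23, 73 and 149 against 141, 152 and 118 counts, and mir-682 had 23, 27 and 49 against 65, 39 and 33, both without a call (edgeR adjusted p = 0.413 and 0.279). The sign of the mir-692-3 change depended on the scaling, with log2 -0.88 on the TMM scale and 0.15 with library totals.

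No precursor among the 3 tested from the list of microRNAs induced by Toll-like receptor 4 through NF-kB was called, against 18.3% of all 71 tested, and their median log2 change was 0.83. A count of 0 among 3 carries no result about the list. mir-146a, a feedback inhibitor of that pathway through Irak1 and Traf6, had 19, 12 and 3 counts in the control EVs and 14, 103 and 85 in the LPS EVs. LPS library 1 lay inside the control range and the other two far above it, and the log2 change was 0.67 ± 1.27 SE (edgeR adjusted p = 0.756). mir-146b, with the same seed, repeated this library by library, with 10, 2 and 0 against 3, 58 and 44 counts (log2 1.25 ± 1.47 SE, adjusted p = 0.611). mir-21a, which is induced in many activated cells, had 2, 5 and 10 against 30, 13 and 54 counts. Its counts did not overlap but its shares did, with a log2 change of 0.83 ± 0.84 SE (edgeR adjusted p = 0.550).

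Other members of the list were too scarce to test. mir-155, a strong promoter of inflammatory activation, had 0 counts in the control EVs and 0, 1 and 2 in the LPS EVs, 0.00382% of the summed counts. In cells the mir-155 share was 0.00243% in the controls and 0.0313% after LPS. mir-132, which is induced through CREB, had 1 count in the 6 EV libraries. mir-221 and mir-222 had 10 and 11 counts in the control and 28 and 37 in the LPS EVs. Their ratios of shares were 1.78 (exact 95% counting interval 0.839 to 4.11) and 2.14 (1.07 to 4.65). mir-210, a microRNA of the hypoxic response, had 13 against 31 counts, a ratio of 1.52 (0.771 to 3.16).

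Among the other lists of microRNA families, mir-320 in the EV cargo list was the only called member, against 18.3% of all 71 tested. The EV cargo list had 6 tested members with 1 higher and a median log2 change of 0.75. The miR-17-92 list had 4 tested members (median 0.30), the miR-23/27/24 clusters 4 (0.14) and the myeloid list 4 (0.14), and in all 3 lists 0 were called. mir-93, from the cluster in Mcm7, had 1, 1 and 3 counts in the control EVs and 15, 23 and 24 in the LPS EVs. The mir-93 groups were far apart but small, and the log2 change of 1.90 ± 0.92 SE was not called (edgeR adjusted p = 0.206). mir-423, a common EV microRNA, had 3, 0 and 5 against 14, 38 and 68 counts (log2 2.15 ± 1.10 SE, adjusted p = 0.239). mir-23a had 42, 35 and 59 against 117, 127 and 177 counts and stood at log2 -0.06 on the TMM scale. Its shares of counts did not overlap between the groups, which held upward for 30 of the 71 tested (42.3%) and downward for 12 (16.9%).

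At the edge of detection, 14 precursors had 0 counts in all 3 control EV libraries and at least 1 in each LPS library, 5 of them from the large cluster in an intron of Sfmbt2, and 4 showed the reverse. That cluster list made up 66 of the 555 precursors with a count in these libraries and the LPS libraries were deeper, so these numbers are a description. mir-466h, of that cluster, had 3, 17 and 16 counts in the LPS EVs, a share at least 7.63-fold higher against a floor of 3 counts over the control group. The exact 95% counting interval of that ratio began lower, at 5.89. mir-669l had 13, 5 and 5 counts (at least 4.88-fold higher against the floor, interval from 3.66). mir-669a-6 had 2, 4 and 16, mir-34a, a target of p53, 10, 4 and 8, and mir-1961 1, 4 and 17 counts (each at least 4.66-fold higher against the floor, interval from 3.48). The 82 Sfmbt2 precursors together took 0.339 ± 0.163% of the control and 1.38 ± 0.681% of the LPS EV counts, and only mir-669c was abundant enough to test (log2 0.55, edgeR adjusted p = 0.764). Of the precursors seen in the control EVs alone, mir-6949 had 7, 1 and 2 counts, at least 5.24-fold lower after LPS against the floor, and mir-5106 had 6, 1 and 2, at least 4.72-fold lower. The exact 95% counting intervals of their ratios of LPS to control shares reached up to 0.284 and 0.322, and control library 1 held most of both precursors' counts. mir-6949 was at 0 in the 6 control and LPS cell libraries and mir-5106 had 1 count there.

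Whether the LPS change in the EVs differed from that in the cells was tested in 1 fit of all 24 libraries. Of 280 precursors tested 17 differed (6.07%; 7 more upward in EVs, 2.5%, and 10 more downward, 3.57%). With library totals 56 differed, 50 upward and 6 downward, and the median difference went from 0.38 to 1.15 on the log2 scale. For 4 of those named the change was called in both compartments of this fit, in opposite directions. In the EV fit with library totals the fall of mir-6240 was still called. Those of mir-6236 (log2 -0.38, edgeR adjusted p = 0.0674) and mir-5099 (-0.36, 0.626) were not. mir-342 had too few counts to be tested in the EV fit. mir-6240 had 439, 476 and 386 counts in the control cells and 878, 972 and 1090 in the LPS cells, a log2 rise of 2.07 ± 0.35 SE (edgeR adjusted p = 0.000119), against -1.71 ± 0.34 SE in the EVs in the same fit. The difference was -3.78 ± 0.49 SE (edgeR adjusted p = 1.06e-05). mir-6236 stood at 1.10 ± 0.31 SE in cells and -1.02 ± 0.31 SE in EVs, where this fit called it (edgeR adjusted p = 0.0266) although the EV fit did not, and mir-5099 at 0.96 ± 0.29 SE and -1.16 ± 0.30 SE. The differences of -2.13 for mir-6236 and -2.12 for mir-5099 were both called (edgeR adjusted p = 0.00598 and 0.00346), the latter no longer with library totals (-1.12, adjusted p = 0.0613) or without control EV library 1 (-1.37, 0.0770). mir-342, abundant in myeloid and lymphoid cells, had 1, 4 and 6 counts in the control and 2, 0 and 1 in the LPS EVs, while in cells it rose by 1.51 ± 0.41 SE on the log2 scale. The mir-342 difference was -4.77 ± 1.05 SE (edgeR adjusted p = 0.00706).

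mir-5126 rose in EVs and not detectably in cells. Its counts in cells were 1271, 1589 and 1268 in the controls and 638, 663 and 625 after LPS in shallower libraries, a log2 change of -0.20 ± 0.44 SE, against 3.02 ± 0.53 SE in EVs. The difference was 3.21 ± 0.69 SE (edgeR adjusted p = 0.00617). mir-2137 stood at 0.97 ± 0.38 SE in cells (adjusted p = 0.105) and 2.95 ± 0.43 SE in EVs, a difference of 1.98 ± 0.56 SE (edgeR adjusted p = 0.0314). mir-93 and mir-466d, another Sfmbt2 precursor, differed by 2.38 ± 0.67 SE and 4.47 ± 1.04 SE upward in EVs, on 5 and 1 control EV counts. The mir-93 difference was not called without a filter (edgeR adjusted p = 0.118), at a mean of at least 50 counts (0.0527) or without control EV library 1 (0.0503), and that of mir-2137 not at a mean of at least 50 counts (0.0671).

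mir-146a rose far more in cells than in EVs. In cells it had 315, 434 and 346 counts in the controls and 10338, 7072 and 8703 after LPS, a log2 rise of 5.42 ± 0.78 SE, and in EVs the same fit gave 1.16 ± 0.80 SE. The difference was -4.26 ± 1.08 SE (edgeR adjusted p = 0.0173), and it was not called without control EV library 1 (-3.42, adjusted p = 0.0760). For mir-146b the change was 4.28 ± 0.70 SE in cells and 1.74 ± 0.95 SE in EVs, a difference of -2.54 ± 1.25 SE that was not called (edgeR adjusted p = 0.179). mir-21a stood at 1.82 ± 0.34 SE in cells and 1.07 ± 0.49 SE in EVs, with a difference of -0.75 ± 0.61 SE (adjusted p = 0.453).

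**Figure D5:**
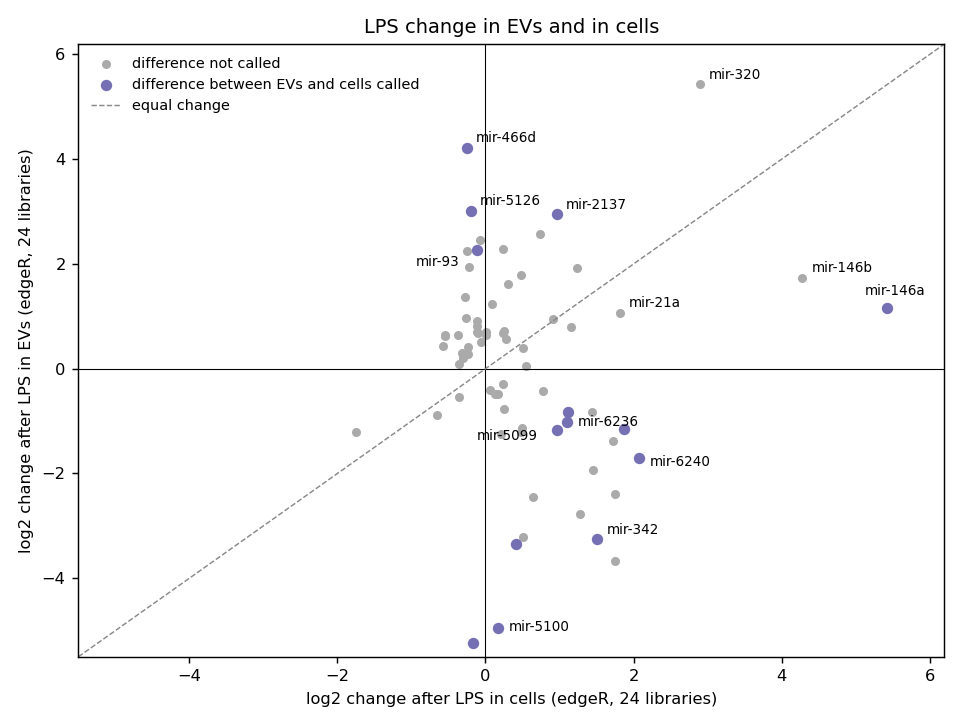
Log2 change after LPS in EVs (y axis) against that in cells (x axis), both from 1 edgeR fit of 24 libraries, for 72 precursors tested in EVs or differing between EVs and cells, with those whose difference was called in purple. mir-146a lies far right of the dashed line of equal change, at 5.42 in cells and 1.16 in EVs, mir-5126 lies at -0.20 and 3.02, and 4 precursors without counts in the cells and 3 with fitted EV changes above 8 from 0 control counts are left out.

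A last contrast compared the LPS EVs with the average of the 2 cytokine groups, and it uses the same LPS libraries as the first. Of 71 precursors 25 differed (35.2%), 8 higher (11.3%) and 17 lower (23.9%). With library totals the split was 24 higher and 7 lower, as the median went from 0.19 to 1.32. mir-2137 was higher by a log2 of 3.34 ± 0.35 SE (edgeR adjusted p = 2.81e-05), mir-5126 by 3.49 ± 0.66 SE, mir-320 by 3.76 ± 0.76 SE and mir-664 by 3.54 ± 0.68 SE (adjusted p = 0.0032 each). mir-6238 was higher by 2.54 ± 0.68 SE, with 232, 34 and 223 counts after IL-10 and 21, 112 and 85 after TGF-β. mir-682 was lower by 3.04 ± 0.58 SE on the log2 scale, with 266, 64 and 47 counts after IL-10 and 31, 152 and 170 after TGF-β, although it was not called against the controls. Against the controls mir-2137 stood at -0.97 ± 0.44 SE after IL-10 and -0.59 ± 0.43 SE after TGF-β, neither of them called (edgeR adjusted p = 0.647 and 0.700).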

How the data were processed

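Small RNA was measured in BV2 cells and their EVs, 3 libraries in each of 8 groups. The deposited values are raw counts of reads per microRNA precursor, 1 column per library, in 8 tables, of which 6 were read and 2 were identical to one of them. For the aligner, annotation and build nothing is stated (not given in the sources used here), and no coordinates are printed. Per the submitters' processing notes DESeq2 was used, with no version stated. Columns were assigned to groups by name.

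Counts were tested with edgeR 4.0.16 (limma 3.58.1, R 4.3.3): TMM factors, a filterByExpr minimum of 10 counts, and the quasi-likelihood F test, two-sided, with Benjamini-Hochberg adjustment over all precursors tested. The 12 EV libraries entered 1 fit (8 residual degrees of freedom), and differences from cells came from a fit of all 24 (16 degrees of freedom). The SE comes from the F statistic. Single values per library were compared by exact permutation. Alternatives were DESeq2 1.42.0 (size factors, Wald test), library totals, other filters, a robust prior, the 6 libraries alone, removal of mir-6236 and mir-6240, and leaving out each library or IL-10 EV library 1. The procedure was tested on simulated data. Named precursors are the 10 smallest p-values in each direction (5 where fewer than 5 were called), the 10 most abundant of each group, precursors at 0 in 1 group, the 5 smallest p-values in each direction of the other contrasts, a panel of inflammatory and EV precursors, and up to 4 tested members of each list. Members, lists and alternatives were chosen with earlier results of these data known. The snoRNA and scaRNA group and the set with few counts in cells were chosen after seeing the data.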

Additional observations from a re-analysis of the deposited data

Results flagged for a closer look

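The 11 named precursors below changed differently after LPS in EVs and in cells by the interaction test of the 24-library edgeR fit, as log2 change in EVs minus log2 change in cells. The difference was positive for mir-5126 (3.21, adjusted p = 0.00617), mir-466d (4.47, adjusted p = 0.00896), mir-93 (2.38, adjusted p = 0.0314) and mir-2137 (1.98, adjusted p = 0.0314). For mir-466h the fitted difference was 10.38 (adjusted p = 0.0314), a value that depends on the handling of 0 counts in the control EVs and is no bound. It was negative for mir-6240 (-3.78, adjusted p = 1.06e-05), mir-5099 (-2.12, adjusted p = 0.00346), mir-6236 (-2.13, adjusted p = 0.00598), mir-342 (-4.77, adjusted p = 0.00706), mir-5100 (-5.11, adjusted p = 0.00706) and mir-146a (-4.26, adjusted p = 0.0173). Without control EV library 1 the mir-5100 difference was -2.78 (edgeR adjusted p = 0.131), and it was no longer called.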

How the results depend on the processing

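Of 13 precursors called between LPS and control EVs, the count was 4 with library totals (3 higher, 1 lower), 6 with a mean of at least 50 counts, and 1 to 11 with 1 control or LPS library left out; it stayed within 1.5 times under the other alternatives. The 17 differences between EVs and cells became 56 with library totals, 34 without a filter, 30 without mir-6236 and mir-6240, 47 with DESeq2's Wald test, 27 without IL-10 EV library 1, and 14 to 33 with 1 library left out. The 25 differences from the cytokine EVs became 11 with a mean of at least 50 counts, 17 without a filter, and 15 to 30 with 1 library left out. With 1 library left out, the change in the dominant share was -25.5 to -17.9 percentage points, that of the let-7 share 1.15 to 2.59 and that of thinned detection -30.0 to -17.6 precursors; unthinned, detection reversed to 40.7. Signs reversed for mir-692-3 with library totals (0.15), for let-7c-2 with library totals (0.98), without a filter (0.27) and without mir-6236 and mir-6240 (0.31), and for mir-29a without control library 2 (-0.21) or LPS library 1 (-0.33; -0.33 to 1.29 with 1 library left out); none of these was called. The cause of these shifts was not tested. EV libraries held few counts outside the dominant pair. In the EV fit, precursors that did not reach about 10 counts, scaled to library size, in at least 3 of the 12 EV libraries were not tested. The sample labels give no replicate numbers, and nothing ties the table's column numbers to shared cultures, so no paired fit was run.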
